A study of Mus musculus with 54 samples.

Results

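The undifferentiated R1 mouse embryonic stem cells of a retinoic acid time course were represented by 7 RNA libraries in 2 sets, with replicates 1 to 3 in the first set and replicates 4 to 7 in the second. These 7 belong to the 22 RNA libraries, and to the 54 samples in all, of the series. The sets were chosen by the measured values themselves: the expression levels of all genes separate the libraries this way, and no label accounts for it. Every difference between the sets is therefore given as a description without a test. Replicates 4 to 7 held more RNA of endoderm genes, such as Sox17 at 25.1 ± 1.41 against 6.08 ± 0.351 FPKM, and of several histone, glycolysis and immediate early genes. They held less of the muscle actins Acta2, at 4.72 ± 0.437 against 28.1 ± 0.275 FPKM, and Acta1, and less of some collagens. The core pluripotency factors were high in every library. Set levels are given as mean ± SD over 3 and 4 libraries.

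Mouse embryonic stem cells come from the inner cell mass of the blastocyst and are kept in the naive pluripotent state by LIF, a cytokine that signals through STAT3. Naive cells express the Oct4, Nanog, Sox2 and Klf circuit. The primitive endoderm is the other lineage of the inner cell mass. It is marked by Gata6, Gata4 and Sox17 and lays down a basement membrane of laminin and type IV collagen around the epiblast.

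The RNA libraries numbered 7 on day 0, 3 each on days 2 and 4, 5 on day 10 and 4 on day 20, and 32 further samples were ATAC-seq libraries, which are not used here because their day-0 signal is deposited as 1 pooled value per region. R1 is an established male embryonic stem cell line, and all groups came from it. Per the labels, the cells grew in medium with 15% knockout serum replacement and 1000 U/ml LIF, formed embryoid bodies during 48 h of hanging-drop culture, and were then kept for up to 20 days in medium to which 0.5 mM retinoic acid was added. The labels give the 7 day-0 libraries the same line, time point, medium and kit. Left unsaid are the moment of day-0 sampling relative to aggregation, whether feeder cells were used, or whether the libraries came from separate cultures, days or sequencing runs.

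The label of stem cell held in all 7 libraries. Pou5f1, which encodes Oct4, stood at 974, 999 and 986 FPKM in replicates 1, 2 and 3 and at 812, 747, 764 and 769 in replicates 4, 5, 6 and 7. At day 2 it had a range of 34.2 to 40.9 FPKM, far below every day-0 library. Nanog stood at 175, 179 and 175 FPKM and at 192, 196, 197 and 203 in the same order. Sox2 stood at 225, 228 and 225 FPKM and at 258, 261, 260.4 and 262. Pou5f1 was thus somewhat lower and Nanog and Sox2 somewhat higher in replicates 4 to 7, without overlap, by -0.35, 0.16 and 0.20 as differences of mean log2(FPKM + 1). FPKM counts fragments per unit of transcript length and of sequencing depth. Between libraries it is a relative level, and its sum over all genes was not constant. That sum was 657674 to 678222 at day 2 and 472122 to 494725 at day 10, and no further scaling was applied in the main results.

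Each library was closer to the others of its set than to any library of the other set. Across the 14982 genes that passed the filter of at least 1 FPKM in at least 3 of the 22 libraries, Pearson's r of log2(FPKM + 1) was 0.9968 to 0.9972 among replicates 1 to 3, 0.9938 to 0.9948 among replicates 4 to 7 and 0.9896 to 0.9912 between the sets. Genes are not independent replicates, so these values only describe the libraries. The first principal component of the 7 libraries carried 49.4% of the variance and separated the sets, and the next carried 14.0%. Replicates 4 to 7 lay slightly nearer than replicates 1 to 3 to the libraries of every later day, with r of 0.9091 to 0.9127 against 0.9039 to 0.9062 for day 2 and of 0.6562 to 0.6657 against 0.6461 to 0.6542 for day 20.

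**Figure D1:**
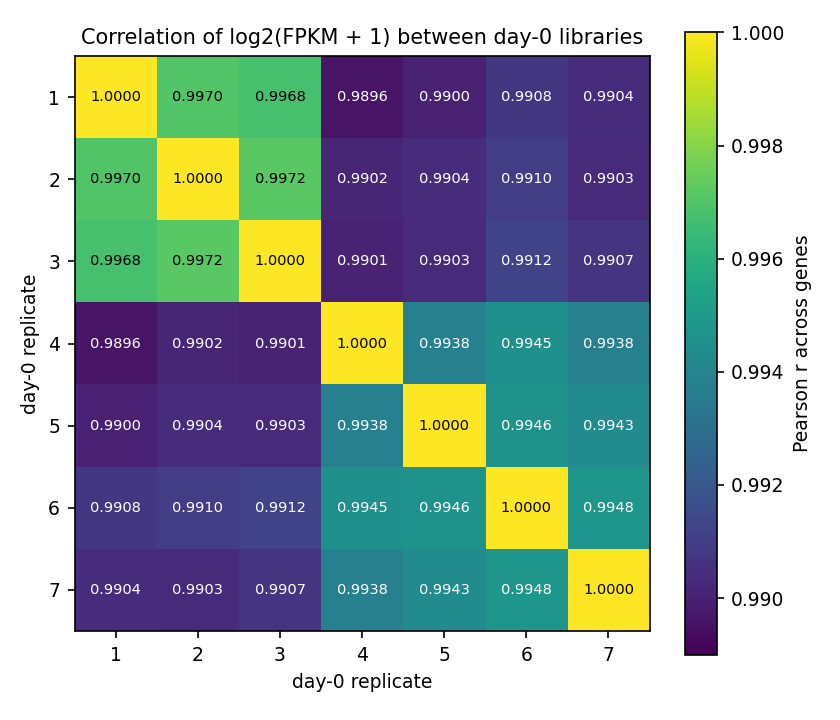
Pearson correlation of log2(FPKM + 1) across genes between the 7 day-0 libraries, with replicate numbers on both axes and r printed in each square. The lighter blocks on the diagonal are replicates 1 to 3 (0.9968 to 0.9972) and replicates 4 to 7 (0.9938 to 0.9948), and the squares between the sets lie at 0.9896 to 0.9912.

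The sets also differed in how low values were resolved. Replicates 1 to 3 had values above 0 for 16670 to 16715 genes and replicates 4 to 7 for 16131 to 16367. Values above 0 but under 0.02 FPKM numbered 215 to 234 in the first set and 63 to 94 in the second. The FPKM of all genes summed to 648331 to 654525 and to 665462 to 672350, and the 10 most abundant genes took 7.17% to 7.29% and 7.71% to 7.82% of these sums. The table holds no read numbers, so the depth is unknown, and the part of depth in the differences below was not tested. The spread among libraries was larger in replicates 4 to 7 at each level of expression. For genes of 5 to 20 FPKM, for example, the median SD on the log2 scale was 0.07 in replicates 1 to 3 and 0.11 in replicates 4 to 7, beside a median absolute difference between the sets of 0.15.

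Most genes differed little. The median absolute difference between the sets was 0.13 on the log2 scale, and 93.9% of genes differed by less than 0.5. Even so, 3286 genes (21.9%) were higher and 2166 (14.5%) were lower in every library of replicates 4 to 7 than in every library of replicates 1 to 3. With a difference of at least 2-fold between the set means of log2(FPKM + 1) as well, 73 genes (0.487% of 14982) were higher and 19 (0.127%) were lower. At 1.5-fold, 345 (2.30%) were higher and 177 (1.18%) were lower. These shares come from the values that chose the sets, and nothing is read from their size. Of the 73 and 19 genes, 7 and 3 were gene models or clone names. Among the higher genes the edge of the 2-fold rule fell between Myo7a, an unconventional myosin, at 1.01 and P4ha1, a subunit of collagen prolyl hydroxylase, at 0.99, and the smallest difference among the 19 lower genes was -1.01, for the myelin protein gene Pmp22.

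**Figure D2:**
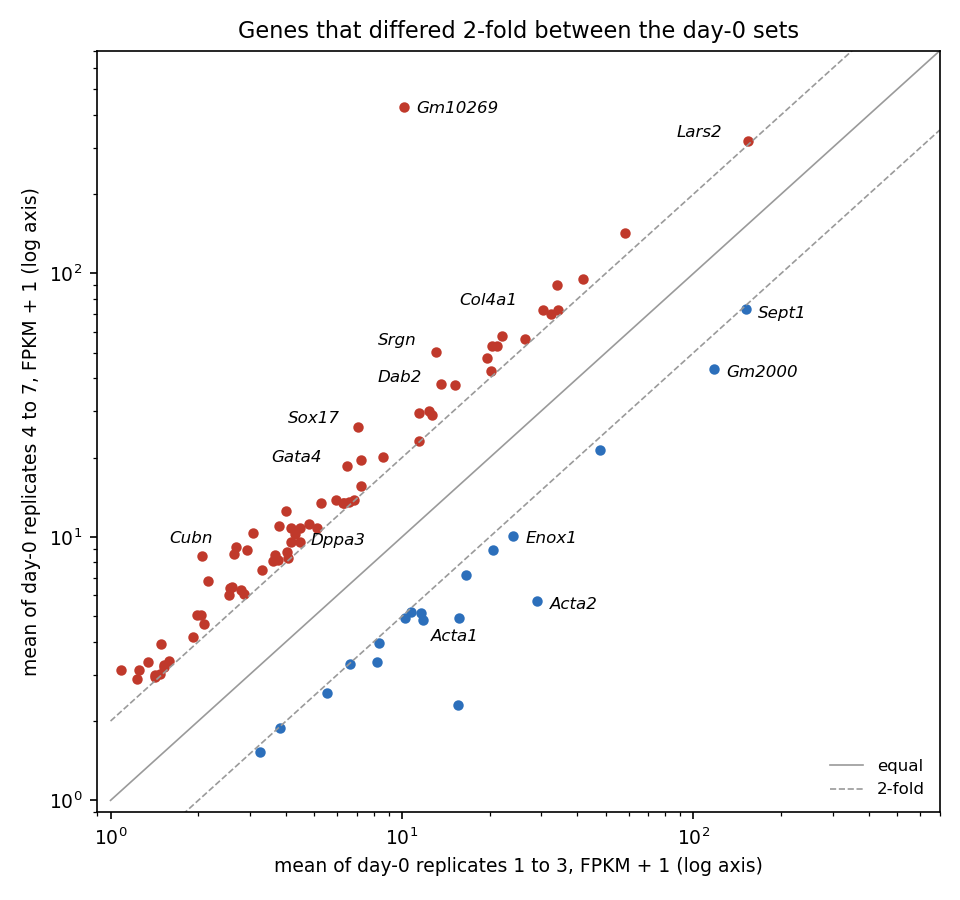
Arithmetic mean FPKM + 1 of day-0 replicates 1 to 3 (horizontal) against replicates 4 to 7 (vertical), both on log axes, for the 92 genes that differed 2-fold in mean log2(FPKM + 1) without overlap. Each point is 1 gene, red where higher and blue where lower in replicates 4 to 7. The solid line marks equal levels and the dashed lines 2-fold. Gm10269 lies far above the other genes and Acta2 is the labelled gene farthest below the lower dashed line.

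Endoderm genes were the largest named group among those higher in replicates 4 to 7. Of 37 listed endoderm genes 34 passed the filter, 13 of them were 2-fold higher and 0 were lower, and at 1.5-fold 18 were higher and 0 lower, beside 2.30% and 1.18% of all genes. Their median difference was 0.62, beside 0.02 over all genes. Sox17, a transcription factor of primitive and definitive endoderm, stood at 5.98, 6.47 and 5.79 FPKM in replicates 1 to 3 and at 26.3, 25.7, 23.1 and 25.4 in replicates 4 to 7. Every library of the latter set was well above every library of the former, and the difference was 1.88 on the log2 scale. Gata4, a zinc finger factor that drives primitive endoderm genes, stood at 5.09, 5.79 and 5.5 FPKM and at 19.1, 16.9, 16.4 and 17.9, a difference of 1.52. Gata6, which acts before Gata4 in that lineage, differed less, with 10.2, 9.6 and 9.72 FPKM against 16.4, 14.2, 16.3 and 15.5 and a difference of 0.61. The ranges of each of these factors lay apart. Foxa2, a pioneer factor of endoderm, and Sox7, a relative of Sox17, were lower in abundance, at 0.987 ± 0.282 against 4.08 ± 0.338 FPKM and at 3.47 ± 0.112 against 8.54 ± 0.711 FPKM. Pdgfra, the growth factor receptor of primitive endoderm, stood at 5.75 against 12.1 FPKM as set means.

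Genes of endocytosis in the visceral endoderm, the part of the extraembryonic endoderm that takes up nutrients, were higher as well. Cubn encodes cubilin, a receptor for the cobalamin carrier and other proteins. It stood at 1.76, 1.59 and 1.72 FPKM in replicates 1 to 3 and at 7.55, 8.39, 8.6 and 8.16 in replicates 4 to 7. Amn encodes amnionless, the partner that brings cubilin to the membrane, and stood at 1.58, 1.29 and 2.09 FPKM and at 8.31, 6.87, 7.52 and 7.78. The 2 genes differed by 1.77 and 1.71 on the log2 scale, and neither overlapped between the sets. Dab2, the adaptor that links such receptors to clathrin, stood at 13.1, 12.5 and 12 FPKM and at 36.2, 38.6, 36.8 and 36.6, a difference of 1.49. Srgn, which encodes the proteoglycan serglycin, stood at 15.3, 8.98 and 11.9 FPKM and at 45.8, 53.3, 49.3 and 49.6, a difference of 1.98. Its replicates 1 to 3 varied more among themselves than those of Dab2. Other genes of the 15 largest differences were Ctsh, the lysosomal protease cathepsin H, at 2.08 ± 0.321 against 9.35 ± 0.791 FPKM, and S100g, a calcium-binding protein, at 1.17 ± 0.723 against 5.79 ± 0.919 FPKM.

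Basement membrane genes of this list were higher too. Col4a1 stood at 31.3, 28.5 and 28.3 FPKM in replicates 1 to 3 and at 72.6, 65.8, 68.8 and 80.5 in replicates 4 to 7. Col4a2, the other chain of the same collagen, stood at 14.3, 13.8 and 14.4 FPKM and at 38.2, 35.2, 36.6 and 36.6. Both chains lay without overlap, by 1.26 and 1.31 on the log2 scale. The laminin chains Lama1 and Lamb1 stood at 25.5 ± 0.582 against 55.2 ± 2.01 FPKM and at 33.2 ± 0.554 against 71.6 ± 1.38 FPKM. The third chain of that laminin, Lamc1, differed by only 0.24, with set means of 86.7 against 102 FPKM. Sparc, a matrix glycoprotein of parietal endoderm, stood at 150.3 against 271 FPKM as set means, and Pth1r, a receptor of parietal endoderm, at 1.86 ± 0.284 against 5.09 ± 0.678 FPKM. Foxa2, Sox7, Pdgfra, Pth1r, Sparc and the basement membrane genes, and further on the galectins, Lars2, Myo7a and the list members named only for their low or level values, were named after their values were seen.

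The list was not higher throughout. Ttr, Afp, Apoa1, Apoa2 and Apob, secreted products of mature visceral endoderm and liver, stayed under 1 FPKM in all 7 libraries, and the highest value among them was 0.33 (Afp). Apoe, an apolipoprotein that many cell types express, was similar, at 947 against 919.8 FPKM as set means. The summed level of the 34 genes ranged over 1385 to 1434 FPKM in the first set and 1742 to 1853 in the second. In bulk libraries a larger share of cells of a type and more RNA per cell cannot be told apart. Few markers of other lineages differed 1.5-fold. Of 8 measured primitive streak and mesoderm genes 1 was 1.5-fold higher (Foxf1), of 10 trophectoderm genes 1 (Esx1) and of 15 neural progenitor genes 1 (Nes), and none of the 3 lists had a member that was lower at that fold. Over all genes, 2.30% were higher and 1.18% lower at 1.5-fold, and so few members do not set these lists apart. Their median differences were 0.16, 0.20 and 0.03 in that order, beside 0.02 over all genes. At any size without overlap, 3, 3 and 4 members were higher and 0, 0 and 1 lower, beside 21.9% and 14.5% of all genes. The summed levels of these lists were low and also lay apart, at 8.06 to 8.49 against 9.93 to 11.6 FPKM for mesoderm, 30.7 to 32.5 against 38.9 to 45.0 FPKM for trophectoderm and 33.1 to 34.6 against 38.0 to 47.0 FPKM for neural genes, and their part in the differences was not tested. T and Cdx2 are single markers of mesoderm and trophectoderm. They stood at 0.60 to 1.25 against 0.90 to 1.52 FPKM and at 0.50 to 0.57 against 0.28 to 0.56 FPKM, with overlapping ranges.

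**Figure D3:**
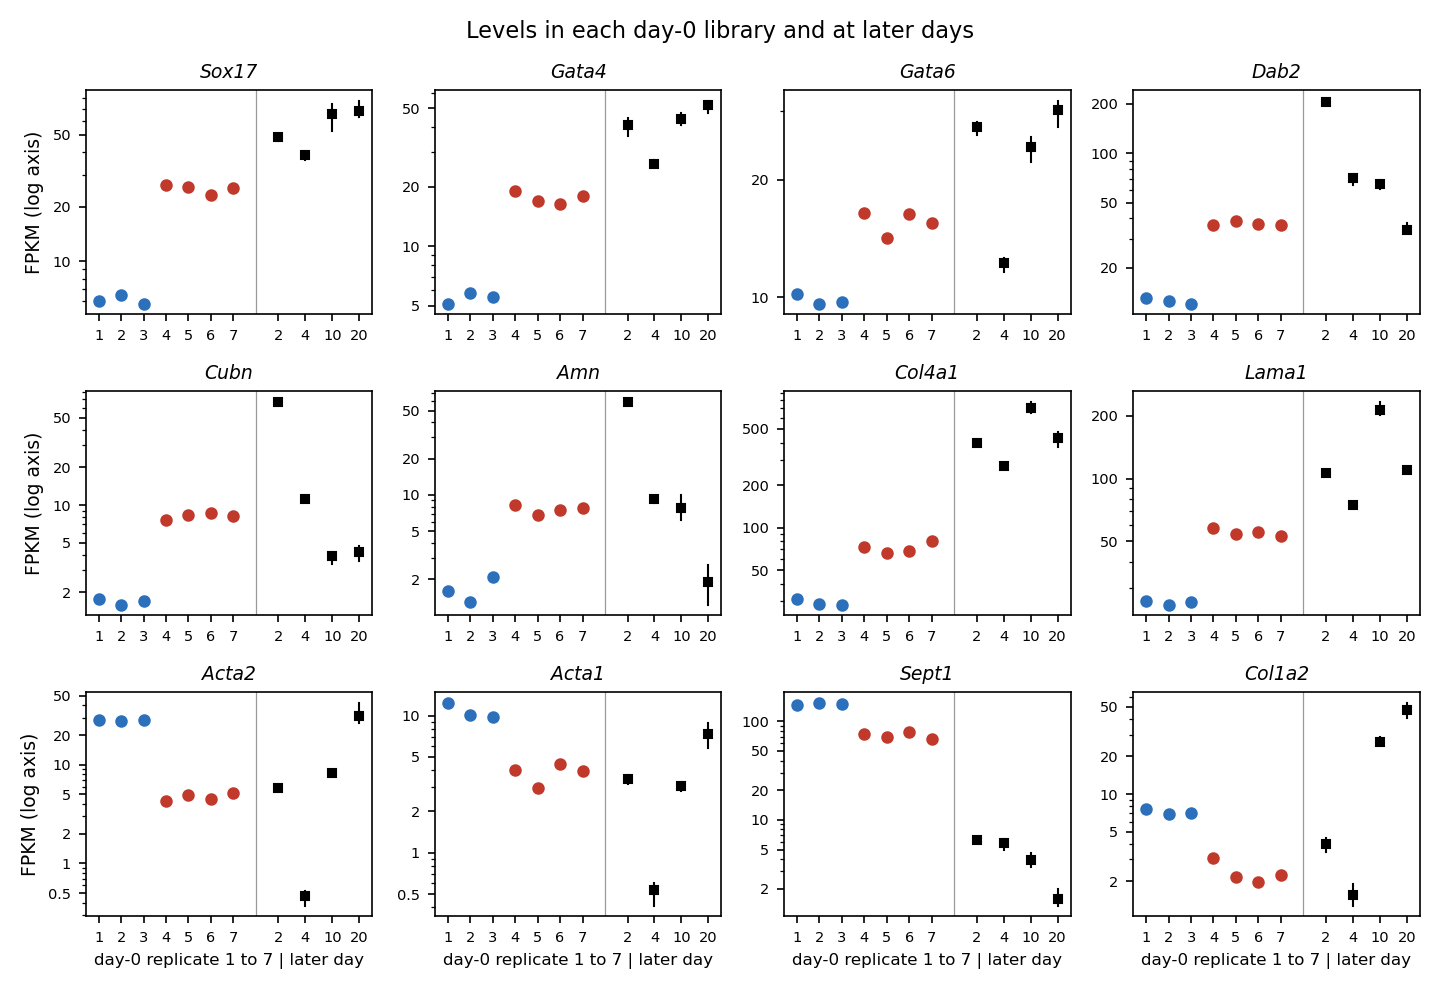
FPKM on log axes of 12 genes in each day-0 library (circles, blue for replicates 1 to 3 and red for replicates 4 to 7) and at days 2, 4, 10 and 20 (squares for the mean, lines from the lowest to the highest library). The endoderm genes of the upper rows are higher in every red than in every blue library, and the 4 genes of the lowest row are lower. Dab2, Cubn and Amn are higher still at day 2.

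The genes lower in replicates 4 to 7 included the muscle actins Acta2 and Acta1, and Acta2 had the largest difference of the lower genes. Acta2 encodes smooth muscle actin and Acta1 skeletal muscle actin, and both are known targets of serum response factor, which binds the CArG box. Acta2 stood at 28.1, 27.8 and 28.3 FPKM in replicates 1 to 3 and at 4.26, 4.96, 4.47 and 5.21 in replicates 4 to 7. The sets were far apart, by -2.35 on the log2 scale, and each was tight. Acta1 stood at 12.4, 10.2 and 9.69 FPKM and at 3.99, 2.98, 4.43 and 3.92, a difference of -1.29 without overlap. Actb, the general cytoplasmic actin, was far more abundant in every library, at 2791 ± 117 against 2271 ± 138 FPKM, and differed by -0.30.

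The promoters of these 2 muscle actins are shown because the genes were low together. Each is the 250 bases before the gene's start from RefSeq (GRCm38.p6, 5′ to 3′ on the gene's minus strand). Acta2 lies at chr19:34255374-34255623 and Acta1 at chr8:123894776-123895025. Capitals mark stretches of 10 bases that match the CArG box on either strand with at most 1 mismatch.
Acta2 promoter: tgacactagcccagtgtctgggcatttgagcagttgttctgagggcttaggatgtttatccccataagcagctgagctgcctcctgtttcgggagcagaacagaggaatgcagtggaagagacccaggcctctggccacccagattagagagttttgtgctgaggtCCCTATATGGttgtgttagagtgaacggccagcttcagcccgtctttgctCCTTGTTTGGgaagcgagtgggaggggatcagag
Acta1 promoter: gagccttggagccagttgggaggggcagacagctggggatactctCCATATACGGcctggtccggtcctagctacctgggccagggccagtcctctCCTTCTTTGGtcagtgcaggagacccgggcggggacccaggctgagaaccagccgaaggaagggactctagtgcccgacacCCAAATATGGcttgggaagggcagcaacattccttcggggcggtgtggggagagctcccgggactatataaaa
In Acta2 these stretches begin 84 and 34 bases before the start, each with 1 mismatch. In Acta1 they begin 205, 154 and 73 bases before the start, and the one at 73 has 0 mismatches. Of the 32851 promoters in the table, 1.47% held a CArG box in a window of this length and 18.6% held one with up to 1 mismatch. The matches describe the sequence and do not show binding. The targets of serum response factor were not examined as a group. Whether this factor had a part in the actin levels was not tested. Immediate early genes, given below, mostly went the other way, with Fos at 3.18 against 5.37 FPKM and Cyr61 at 63.5 against 112.4 FPKM as set means. Of 22 such genes, 18 were higher and 1 lower at any size without overlap.

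Fibrillar collagen was low in both sets and lower in replicates 4 to 7. Col1a2, a chain of type I collagen, stood at 7.63, 6.89 and 7.09 FPKM and at 3.05, 2.17, 1.97 and 2.23, a difference of -1.30. Col1a1, the other chain, stood at 3.5, 3.11 and 3.56 FPKM and at 1.49, 1.43, 1.7 and 1.39, and Col5a2, a chain of type V collagen, at 2.41 ± 0.05 against 0.96 ± 0.0572 FPKM. Of 23 genes of fibroblasts, the usual feeder cells of stem cell culture, Acta2, Col1a1, Col1a2 and Col5a2 were 1.5-fold lower and 0 were higher. Over all genes, 1.18% were lower and 2.30% higher at that fold. At any size without overlap 3 of the 23 were higher and 5 lower, beside 21.9% and 14.5% of all genes. The median difference of the list was -0.04. Of the same list, 9 genes stayed under 1 FPKM in all 7 libraries. Among these, Lum, Dcn, Prrx1, Postn and Pdgfrb stayed at or under 0.51 FPKM. The summed level of the 23 genes ranged over 605.0 to 638.5 FPKM in the first set and 583.3 to 629.2 in the second, and Vim and Fn1, which stem cells also express, made up much of it. Whether other cells had a part in these differences was not tested beyond these levels.

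Genes of cell shape and adhesion went both ways. Of 44 cytoskeleton and adhesion genes 7 were 1.5-fold lower (Acta2, Acta1, Anxa1, Lgals3, Lgals1, Tpm2 and Cav1) and 1 was higher (Cyr61), beside 1.18% and 2.30% of all genes. At any size without overlap, 19 were higher and 13 lower, beside 21.9% and 14.5% of all genes. The median difference of the list was 0.05. Anxa1, a membrane-binding annexin, stood at 25.4, 22 and 24.7 FPKM in replicates 1 to 3 and at 15.1, 11.8, 14.9 and 11 in replicates 4 to 7. The galectins Lgals3 and Lgals1 stood at 25.2 against 14.4 and 90.8 against 55.3 FPKM as set means. Sept1, a septin of the cytoskeleton, was the most abundant of the 19 lower genes, at 147, 155 and 148 FPKM and 74.2, 69.1, 78.5 and 66.3. Its sets lay apart by -1.05.

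Among the remaining lower genes, Enox1, a cell surface oxidase, had tight sets, at 23.7, 23.1 and 22.3 FPKM in replicates 1 to 3 and 9.22, 9.15, 8.84 and 8.96 in replicates 4 to 7. Vwa3b stood at 19.6 ± 1 against 7.89 ± 0.99 FPKM. Tgm1, a transglutaminase of epithelia, stood at 9.72 ± 0.436 against 4.19 ± 0.427 FPKM, and Arhgdib, an inhibitor of small GTPase cycling, at 9.27 ± 0.643 against 3.92 ± 0.756 FPKM. Bbs2, a subunit of the ciliary BBSome, stood at 46.9 ± 3.25 against 20.4 ± 4.62 FPKM, and Cphx1, a homeobox gene, at 10.6 ± 3.86 against 4.12 ± 1.69 FPKM with a wide spread in each set. Ccdc3 stood at 7.37 ± 0.11 against 2.94 ± 0.622 FPKM. Replicate 1 alone set the values of 2 gene models: B230307C23Rik stood at 38.5, 2.77 and 2.4 FPKM and Gm15446 at 34, 5.05 and 4.96 in replicates 1 to 3, against 1.06 to 1.5 and 3.62 to 4.17 in replicates 4 to 7. Without replicate 1 their differences went from -1.80 and -1.14 to -0.64 and -0.29.

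The largest difference of all belonged to Gm10269, a gene model with no role assigned here. It stood at 4.53, 9.81 and 13.2 FPKM in replicates 1 to 3 and at 315, 604, 479 and 309 in replicates 4 to 7, a difference of 5.44. Days 2, 4 and 10 resembled replicates 1 to 3, with a highest value of 13.6 FPKM, and day 20 lay between the sets at 73.2 to 163 FPKM. Gm2000 went the other way at day 0, with 109.7, 124 and 116 FPKM against 34.1, 30.1, 50.9 and 54.5, and Gm6594 was higher in replicates 4 to 7, with 1.58, 1.47 and 5.95 against 12.1, 8.76, 7.42 and 18.1. Gene models of this kind may share reads with near-identical copies elsewhere, so their values are uncertain. Lars2, the mitochondrial leucyl-tRNA synthetase, was the most abundant gene of the 73 in replicates 1 to 3, and stood at 156, 138 and 164 FPKM against 323, 316, 312 and 313.

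Several replication-dependent histone mRNAs were higher in replicates 4 to 7, although the libraries were made from polyA-selected RNA. Such mRNAs carry no polyA tail and are made in S phase. Of 43 listed genes 32 passed the filter. Of these, 10 were 1.5-fold higher, 0 lower and 22 neither, beside 2.30% higher and 1.18% lower of all genes. At any size without overlap 10 were higher and 0 lower, beside 21.9% and 14.5% of all genes. The median difference was 0.53, beside 0.02. The median deviation from the mean of the 7 libraries was uneven in the second set, from -0.002 (replicate 5) to 0.376 (replicate 4), against -0.309 to -0.175 in the first. Hist1h4f stood at 0.98, 0.62 and 1.56 FPKM in replicates 1 to 3 and at 6.46, 9.54, 5.93 and 7.83 in replicates 4 to 7, and Hist1h4b at 3.17, 4.84 and 3.36 and at 11, 7.37, 12.7 and 9.93. Hist2h2aa2, outside that list, lay only just apart, with 2.61, 3.21 and 0 FPKM against 3.28, 10.4, 8.08 and 9.88, and its difference of 1.75 was 1.10 without replicate 3. The summed level of the 32 genes ranged over 68.1 to 79.4 FPKM in the first set, 105.4 to 146.2 in the second, 116.3 to 137.4 on day 2 and 122.9 to 143.9 on day 20. These are low levels spread over near-identical genes, and reads may be split between copies. Of the 34 cell cycle genes 0 differed 1.5-fold, and the median difference was 0.05. At any size without overlap 13 of them were higher and 5 lower, beside 21.9% and 14.5% of all genes. Whether the cell cycle had a part was not tested.

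Some genes of low oxygen and carbohydrate use were higher in replicates 4 to 7. Of 37 measured glycolysis and hypoxia genes 8 were 1.5-fold higher and 0 lower, beside 2.30% and 1.18% of all genes, with a median difference of 0.24 beside 0.02. Slc16a3, the lactate exporter, stood at 4.9, 3.89 and 4.02 FPKM in replicates 1 to 3 and at 13.2, 11.7, 12.4 and 12.3 in replicates 4 to 7. The collagen prolyl hydroxylase subunits P4ha2 and P4ha1 stood at 7.58 ± 0.656 against 19.1 ± 1.5 FPKM and at 11 ± 0.358 against 22.9 ± 1.37 FPKM. Ldhb, a lactate dehydrogenase subunit, stood at 123 ± 2.89 against 225 ± 8.12 FPKM. The glycolytic enzyme Gapdh was, in contrast, slightly lower, at 3862 ± 103 against 3438 ± 90.5 FPKM, and the summed level of the list overlapped, at 7384 to 7596 against 7238 to 7638 FPKM. Ndufa4l2, a respiratory chain protein that low oxygen raises, was near the floor in replicates 1 to 3, at 0.49 ± 0.185 against 2.93 ± 0.276 FPKM.

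Immediate early genes, which stimuli and cell handling switch on within minutes, were mostly higher. Of 22 measured genes 6 were 1.5-fold higher (Egr3, Cyr61, Atf3, Klf6, Junb and Fos), and 1 was lower (Myc), beside 2.30% and 1.18% of all genes. At any size without overlap 18 were higher and 1 lower, beside 21.9% and 14.5% of all genes. Cyr61, a matrix protein, stood at 64.1, 62.5 and 63.9 FPKM in replicates 1 to 3 and at 116, 109, 113 and 111 in replicates 4 to 7. Egr3 stood at 0.92 ± 0.0954 against 3.15 ± 0.191 FPKM and Klf6 at 21.6 ± 1.5 against 35.1 ± 1.99 FPKM. Atf3 varied among replicates 4 to 7, at 9.21, 8.4, 5.91 and 13.5 FPKM, and stood at 5.31, 5.11 and 4.34 in replicates 1 to 3. Dusp5 and Phlda1, feedback genes of the ERK kinase pathway, stood at 35.9 ± 0.917 against 63.5 ± 3.23 FPKM and at 33.8 ± 0.545 against 57.8 ± 4.33 FPKM. Myc, the growth regulator, went the other way, at 48.8, 47.4 and 47.5 FPKM against 31.3, 30.8, 30.2 and 29.7. Of 19 heat shock genes 0 passed 1.5-fold, with 4 higher and 5 lower at any size without overlap, and of 23 p53 targets 0 passed it, with 10 higher and 5 lower. Whether handling had a part was not tested.

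The naive pluripotency list split in both directions, mostly by small amounts. Of 30 genes, all measured, 10 were higher and 14 lower at any size without overlap, beside 21.9% and 14.5% of all genes, and the median difference was -0.10. At 1.5-fold Dppa3 was higher, Gbx2 was lower and 28 were neither. Dppa3, the maternal factor Stella, stood at 3.25, 3.84 and 3.3 FPKM in replicates 1 to 3 and at 8.67, 10.5, 8.9 and 11.1 in replicates 4 to 7. Gbx2, a homeobox target of LIF, stood at 66.6, 62.5 and 62.1 FPKM and at 36.1, 31.5, 33.9 and 30.2. The Krüppel-like factors Klf2, Klf4 and Klf5 were higher, by 0.46, 0.43 and 0.41, as were Tbx3 and Zfp42, by 0.57 and 0.09. Nr0b1, a nuclear receptor, and Gdf3, a ligand of the TGF-beta family, were lower, by -0.57 and -0.51. Utf1, Rex2, Lin28a, L1td1 and Tdgf1 were lower by -0.40, -0.39, -0.38, -0.38 and -0.35. Esrrb, Prdm14 and Tfcp2l1 overlapped between the sets, with differences of 0.09, -0.07 and -0.11. Of these, Klf2, Klf5, Nr0b1, Gdf3, Utf1, Rex2, Lin28a, L1td1 and Tdgf1 were named after their values were seen. Of 21 primed epiblast genes 3 were 1.5-fold higher (Zic2, Lef1 and Fst) and 1 was lower (Foxd3), beside 2.30% and 1.18% of all genes. Zic2, a zinc finger factor, stood at 15.4 ± 0.88 against 28.2 ± 2.27 FPKM and Foxd3, a forkhead factor, at 22.9 ± 1.17 against 12.3 ± 1.03 FPKM. Otx2 was higher by 0.46, while Fgf5, the usual marker of the primed state, stayed at 0.70 to 0.97 against 0.77 to 1.05 FPKM. Genes of the 2-cell-like state had 2 of 21 higher (Dppa3 and Usp17la) and 0 lower at 1.5-fold, 11 higher and 0 lower at any size without overlap, and a median of 0.27. Germline genes had 2 of 20 higher (Tuba3b and Asz1) and 0 lower at 1.5-fold, 11 higher and 1 lower at any size, and a median of 0.21.

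DNA methyltransferase genes were lower together. Dnmt3l, the cofactor of de novo methylation, stood at 286, 285 and 291 FPKM in replicates 1 to 3 and at 178, 168, 165 and 166 in replicates 4 to 7, a difference of -0.76. Dnmt3b and Dnmt3a, the enzymes it works with, stood at 48.4 ± 1.49 against 34.6 ± 1.08 FPKM and at 108 ± 0.935 against 89.6 ± 4.15 FPKM, which were smaller differences of -0.47 and -0.26. Of 15 measured genes of DNA methylation 9 were lower and 0 higher at any size without overlap, beside 14.5% and 21.9% of all genes, with a median of -0.18. Of these, Dnmt3l alone passed 1.5-fold. Imprinted genes split, with Phlda2, a brake on placental growth, at 30.6, 33.8 and 34.3 FPKM against 74.1, 96.2, 89.6 and 96.8 and Peg10, a gene of retrotransposon origin, at 112, 107 and 111 against 58.8, 62.4, 61.7 and 59.8. Their list had a median of -0.05.

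Signalling lists held few members past 1.5-fold, but several of their summed levels lay apart. In replicates 1 to 3 against 4 to 7 these were 1054 to 1073 against 1141 to 1230 FPKM for LIF and STAT3 targets and 724.5 to 735.9 against 790.0 to 827.7 FPKM for FGF and ERK targets. Lower in replicates 4 to 7 were those of Nodal and BMP response genes, at 813.5 to 830.1 against 758.0 to 778.6 FPKM, and of Wnt targets, at 80.5 to 84.0 against 74.3 to 79.4 FPKM. The medians of these lists were 0.15, 0.04, 0.01 and -0.03, beside 0.02 over all genes. Of 23 retinoic acid response genes, with a median of 0.14, 3 were 1.5-fold higher and 1 lower, beside 2.30% and 1.18% of all genes. Cyp26a1, the enzyme that degrades retinoic acid, stood at 1.59, 1.31 and 1.22 FPKM in replicates 1 to 3 and at 3.66, 3.66, 2.67 and 3.84 in replicates 4 to 7, both far below the 344 to 381 FPKM of the day-2 libraries. Rarg, a retinoic acid receptor, was lower, at 89, 90.5 and 91.9 FPKM against 58.8, 51.2, 51.2 and 52. Crabp1, a retinoic acid carrier, stood at 14.7 ± 0.98 against 22.8 ± 2.22 FPKM. Of the Wnt list, 2 of 15 were higher, and Dkk1, a secreted Wnt inhibitor, stood at 1.77, 1.48 and 1.43 FPKM against 5.35, 5.32, 4.79 and 6.11. Bmp4 and Inhbb, ligands of the BMP and activin pathways, were lower, at 18.6 ± 3.22 against 9.94 ± 2.36 FPKM and at 11.6 ± 0.633 against 6.83 ± 0.0613 FPKM, whereas Id3, a target of BMP, was higher at 9.76 ± 0.715 against 15.7 ± 1.24 FPKM. Nppb, the brain natriuretic peptide, stood at 6.25 ± 0.567 against 18.7 ± 0.927 FPKM and at no later day had a library above 0.76 FPKM.

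**Figure D4:**
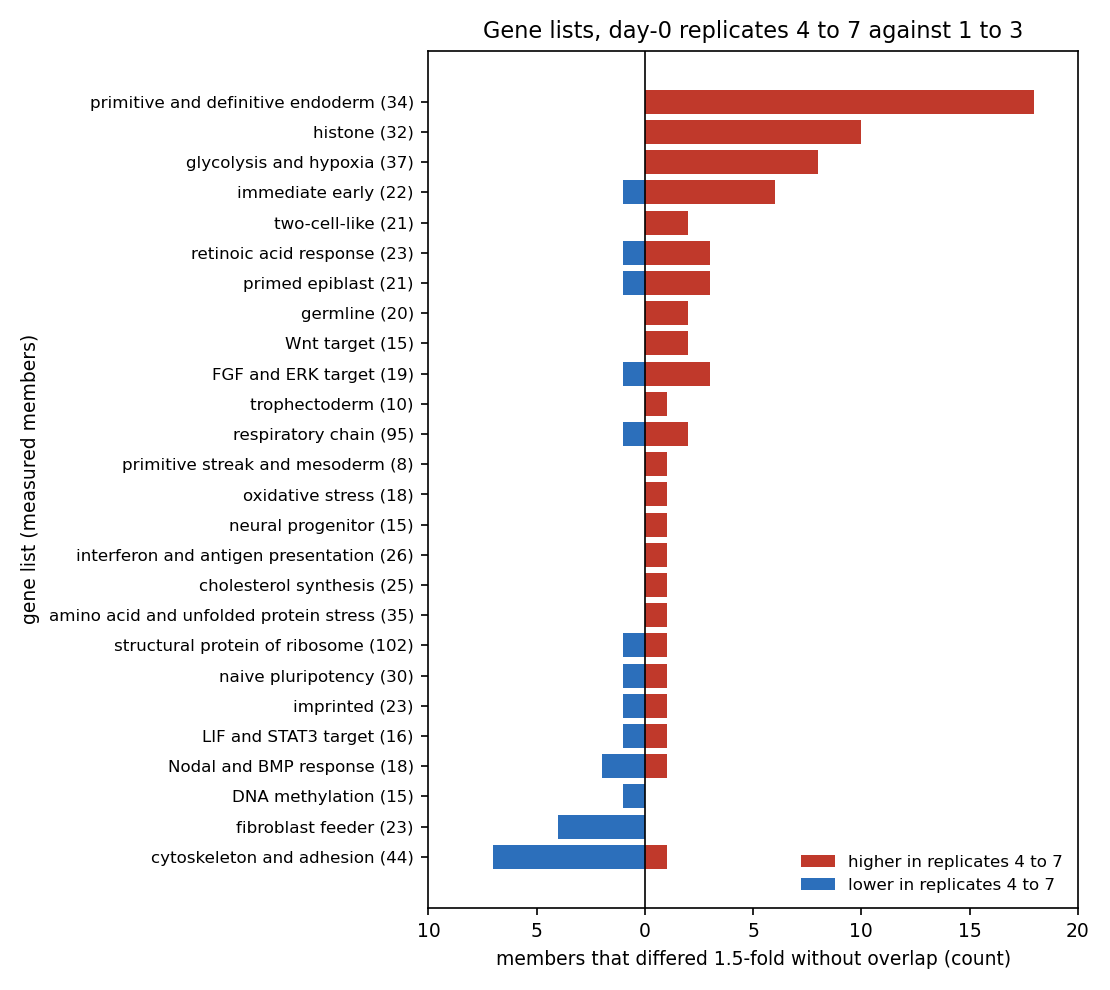
Number of genes of each list that differed 1.5-fold without overlap between the day-0 sets, to the right in red where higher and to the left in blue where lower in replicates 4 to 7, with the measured members in brackets. Lists without such a member are not drawn. The endoderm list has the longest bar to the right (18) and the cytoskeleton list the longest to the left (7).

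The median difference varied little by chromosome. The RefSeq tables placed 14852 genes (99.1%) on a chromosome. The median ranged from 0.00 to 0.05 over the 20 chromosomes made up of the autosomes and X, the smallest of which held 418 genes. X had the highest, at 0.051. Among genes with a mean of 5 FPKM or more the range was 0.009 to 0.068, with X and chromosome 1 highest. Y-linked genes were present in both sets, with a summed level of 116.8 to 120.6 FPKM in the first set and of 109.5 to 131.2 in the second, and 0 of 7 differed 1.5-fold. Of 8 X-linked genes chosen as readers of dosage 0 differed 1.5-fold. At any size without overlap 4 were higher and 2 lower, and the median was 0.12. Of 102 genes of ribosomal proteins 1 was higher and 1 lower at 1.5-fold, beside 2.30% and 1.18% of all genes. At any size without overlap 40 were higher and 27 lower, beside 21.9% and 14.5% of all genes. Their summed level lay apart, at 155000 to 157400 FPKM in the first set and 164200 to 167500 in the second. The 95 respiratory chain genes had 35 higher and 10 lower at any size without overlap and a median difference of 0.06.

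The 92 genes were then followed in the 15 libraries of days 2 to 20, which had no part in choosing the sets. The mean log2 level of the 73 genes was 2.43 to 2.45 in replicates 1 to 3, 3.77 to 3.79 in replicates 4 to 7, and in the later libraries 4.22 to 4.29 (day 2), 3.57 to 3.62 (day 4), 4.02 to 4.15 (day 10) and 4.66 to 4.85 (day 20). Within each later day the libraries spanned less than the distance between the day-0 sets. The genes were chosen for that distance, so nothing is read from this comparison. Without Gm10269 the day-0 ranges were 2.41 to 2.44 and 3.71 to 3.72. Of the 73 genes, 39 were higher in every day-2 library than in every day-0 library and 10 were lower, beside 37.3% and 28.1% of all genes. The mean level of the 19 lower genes was 3.63 to 4.10 in replicates 1 to 3, 2.50 to 2.61 in replicates 4 to 7 and 2.08 to 2.31 at day 2. Of these, 4 were above and 10 below every day-0 library at day 2. The day-0 libraries that chose the genes enter these positions, so they describe the levels only.

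**Figure D5:**
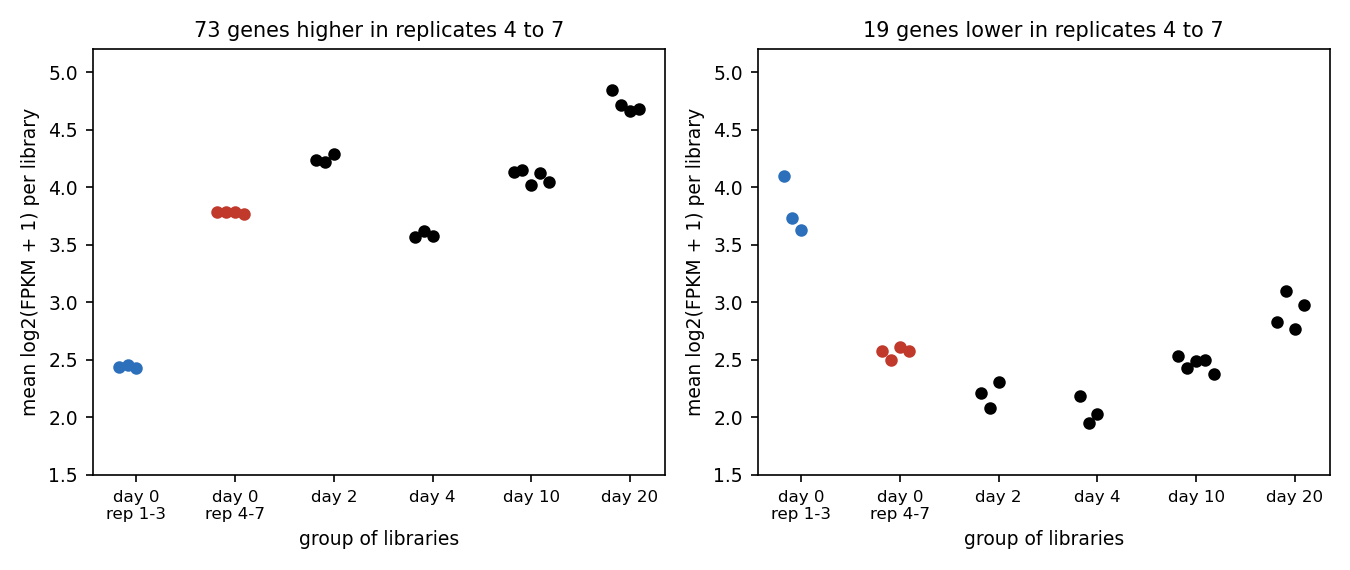
Mean log2(FPKM + 1) per library (1 point each) of the 73 genes higher (left) and the 19 genes lower (right) in day-0 replicates 4 to 7, for both day-0 sets and days 2, 4, 10 and 20. Replicates 4 to 7 (red) lie between replicates 1 to 3 (blue) and day 2 in both panels, and the libraries of a later day stay close together.

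Between the later days, limma with Benjamini-Hochberg adjustment called most genes. How many of all genes rose and how many fell depended on the scaling of the libraries, as given in the last section. From day 2 to day 4, 39.3% of all genes rose and 36.1% fell. Of the 73 genes 8 rose and 46 fell, with a median change of -0.62, beside 0.01 over all genes. From day 4 to day 10, 43.2% of all genes rose and 34.2% fell, and of the 73 genes 43 rose and 14 fell, with a median change of 0.66 beside 0.07. From day 10 to day 20, 38.6% rose and 39.9% fell over all genes, against 37 and 26 of the 73, with median changes of -0.02 and 0.17. The 19 genes showed 4 rising and 7 falling, then 8 and 4, then 9 and 5 in the same steps.

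The endoderm list includes 13 of the 73 genes. Of its 34 genes 2 rose and 29 fell from day 2 to day 4, with a median change of -0.82, beside 39.3% and 36.1% of all genes. From day 4 to day 10, 22 rose and 8 fell, beside 43.2% and 34.2% of all genes. From day 10 to day 20, 14 rose and 17 fell, with a median change of -0.11, beside 38.6% and 39.9% of all genes. Cubn fell from 66.3 ± 1.18 FPKM at day 2 (n = 3) to 11.2 ± 0.438 at day 4 (n = 3), a change of -2.47 ± 0.08 (SE) on the log2 scale with an adjusted p of 1.53e-13 by limma, and was at 4.22 ± 0.492 at day 20 (n = 4). Amn fell likewise from 58.7 ± 1.05 to 9.23 ± 0.646 FPKM, by -2.55 ± 0.16 with an adjusted p of 6.37e-10 by limma. Cubn and Amn thus peaked at day 2 among the days measured. Dab2 fell from 206 ± 5.59 FPKM at day 2 to 71 ± 5.91 at day 4 (adjusted p 3.66e-12, limma) and ended at 34.1 ± 2.24 at day 20, close to its 37 ± 1.08 in day-0 replicates 4 to 7. Sox17 changed less, from 48.4 ± 1.92 to 38.6 ± 2.02 FPKM (adjusted p 0.0105, limma), then rose to 65.1 ± 8.58 at day 10 (adjusted p 2.41e-06, limma). Lama1 rose from 75.1 ± 0.886 FPKM at day 4 to 213 ± 15.2 at day 10 (n = 5), by 1.49 ± 0.05 with an adjusted p of 1.43e-13 by limma.

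Of the lower genes, Acta2 stood at 5.81 ± 0.403 FPKM at day 2, near its day-0 replicates 4 to 7, and fell to 0.467 ± 0.085 at day 4 (adjusted p 1.96e-10, limma). It then rose to 8.17 ± 0.333 at day 10 and 31.4 ± 7.6 at day 20 (adjusted p 5.21e-12 and 2.16e-10, limma), the last spanning the level of day-0 replicates 1 to 3. Col1a2 rose from 1.57 ± 0.323 FPKM at day 4 to 26.2 ± 1.75 at day 10, by 3.41 ± 0.11 with an adjusted p of 1.11e-13 by limma. In that step 22 of the 23 fibroblast genes rose, Col1a2 among them, and 1 fell, beside 43.2% and 34.2% of all genes. Sept1 stood under every day-0 library from day 2 on, at 5.78 to 6.76 FPKM at day 2 and 1.34 to 1.99 at day 20. The histone list fell in 26 of 32 genes from day 2 to day 4 and rose in 1, beside 36.1% and 39.3% of all genes.

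Libraries within replicates 4 to 7 also differed from each other in single genes. Ap1ar, an adaptor-binding protein of vesicle transport, stood at 22.3, 99.5, 82.5 and 22.5 FPKM in replicates 4, 5, 6 and 7 and at 21.6, 20.7 and 20.8 in replicates 1, 2 and 3, so that replicates 4 and 7 hardly left the other set. Prr14l stood at 31.8, 12.4, 30.6 and 41.3 FPKM, with replicate 5 close to the 10.8 to 12 of replicates 1 to 3. Camta1, a calmodulin-binding factor, varied in both sets, at 42.8, 40.2 and 11.4 FPKM and 54.2, 92.8, 74.2 and 54.9. These 3 genes were named after their values were seen. Most endoderm genes were far tighter, Lamb1 spanning 32.6 to 33.6 FPKM and 70 to 72.8.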

How the data were processed

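PolyA RNA was extracted with RNeasy and made into libraries with NEBNext Ultra, per the labels' protocols. The authors deposited 1 table of FPKM for 21960 genes in 22 libraries. RSEM and the mm9 build are named in the submitters' processing notes. Neither the annotation nor the read numbers are given in the sources used here, and the FPKM unit was taken from those notes and the values. Columns were matched to samples by title.

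Values were taken as log2(FPKM + 1), so differences of low genes are understated. Genes with at least 1 FPKM in at least 3 of the 22 libraries were kept (14982). A gene differed between the day-0 sets where the set means of log2(FPKM + 1) were 2-fold apart (1.5-fold for lists) and the libraries did not overlap. No test was made of that contrast. Day 4 against 2, day 10 against 4 and day 20 against 10 were tested on the 15 later libraries with limma 3.58.1 in R 4.3.3 (group means, trended variance, Benjamini-Hochberg adjustment within each comparison, threshold 0.05). On simulated data for day 4 against day 2 with 14982 genes, 200 of them changed, it recovered 100% of 2-fold and 91% of 1.5-fold changes and called 17 unchanged genes. The noise was normal and the changed genes were drawn from those well expressed at day 2. These rates therefore do not cover low genes or steps in which most genes change. Whether libraries were separate cultures is not stated, so p-values measure only the spread between these libraries, which may be technical.

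The named genes were the 15 with the largest difference in each direction among those with a higher set mean of at least 5 FPKM, up to 4 members of each of 32 lists at 1.5-fold, and 25 fixed by name. The sets, lists and this rule were chosen with earlier results of these data known. Some genes are not reported here. Near-identical gene copies may share reads. Alternatives were other pseudocounts, filters, scalings and folds, leaving out each library, and a replicate block.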

Additional observations from a re-analysis of the deposited data

Results flagged for a closer look

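Single libraries stood far from the others of their group in 10 of 218 groups examined. Many of the genes were chosen because the day-0 sets lay apart, and the groups of replicates 4 to 7 lie within those of all 7 libraries. No rate by chance can therefore be set beside this count, and nothing is read from it. Among the 7 day-0 libraries, replicate 1 was far above the rest for the gene models B230307C23Rik, at 38.5 FPKM, and Gm15446, at 34.0 FPKM. Within replicates 4 to 7, replicate 4 was the highest for Foxd3 (13.8 FPKM), Rarg (58.8), Dusp5 (68.4), Junb (60.2) and Hsd17b7 (14.3), a gene of cholesterol synthesis. Replicate 6 was the highest for Fst, which encodes follistatin, at 3.40 FPKM and the lowest for Cyp26a1 at 2.67 FPKM. Replicate 5 was the lowest for Tuba3b, a testis tubulin, at 44.4 FPKM.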

How the results depend on the processing

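The counts of genes that differed 2-fold at day 0 moved with the pseudocount, as low genes weigh more when it is small. With a pseudocount of 0.1 FPKM, 214 genes were higher and 91 lower in replicates 4 to 7, with 5 FPKM, 21 and 5, and at 1.5-fold, 345 and 177. Quantile normalization gave 64 and 27, and scaling to the same sum 64 and 21. Leaving out each day-0 library in turn gave 72 to 81 higher and 18 to 24 lower genes, and 68 to 71 of the 73 and 15 to 19 of the 19 were shared. Leaving out gene models, chosen after seeing the data, gave 66 and 16. The alternative without Gm10269 was also added then. The 32 list medians stayed within the spread between libraries in 321 of 416 alternatives and moved in 95. Whether a median changed sign was not examined. The median ranged from 0.26 to 0.94 for endoderm and from 0.24 to 0.78 for histone genes. In the later steps quantile normalization moved 3 counts. From day 2 to day 4, 5 of the 73 genes rose, from day 4 to day 10, 22 of them fell and 5 of the 19 rose. The cause was not tested. The other 357 of 360 counts stayed within 1.5 times. Leaving out each later library gave 6193 to 6538 genes rising from day 4 to day 10. Within that limit the balance of rising and falling genes shifted with scaling. From day 2 to day 4, 5895 of all genes rose and 5409 fell as deposited. Scaling to the same sum gave 7654 and 3659, and quantile normalization 4908 and 6319. From day 10 to day 20, 5784 and 5983 became 4579 and 7658 with the same sum and 4923 and 7170 with quantile normalization. With a replicate block, 5861 genes rose and 5352 fell from day 2 to day 4, 6265 and 4966 from day 4 to day 10, and 5693 and 5875 from day 10 to day 20. The replicate numbers did not pair the libraries, since the deviations of 19 same-numbered pairs correlated at -0.15 to 0.22 and 1 was over 0.1. Without read numbers, counting error at low FPKM is unknown.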
